A study of Mus musculus with 55 samples.

Results

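The change from 2 to 5 months of age in the flexor digitorum brevis (FDB) of wild-type mice was read from 8 of the 55 RNA-seq libraries of the series, 4 at each age. The FDB is a small muscle in the sole of the foot that flexes the toes. The libraries were those that the submitters' sample sheet lists as FDB, wild type (wt), at 5 months and at 2 months, and every gene of the table was considered. The other groups used here, all at the same ages, were the extensor digitorum longus (EDL, a fast muscle of the lower leg) and the soleus (SOL, a slow, oxidative one) of wild-type mice, with 4 libraries per age each, and the FDB of mdx mice, with 3 libraries at 2 months and 7 at 5 months. The mdx mouse carries a mutation in Dmd, lacks full-length dystrophin and is a widely used model of Duchenne muscular dystrophy. The labels give genotype, muscle and age, and not the strain, the sex or how many animals were used. Nothing in them ties a library to an animal of its own, so the p-values reflect the spread among libraries, some of which may be technical. The wild-type FDB libraries ns09 to ns12 are all at 2 months and ns13 to ns16 all at 5 months. Numbering and age therefore cannot be told apart, and a change with age below means a difference between these 2 sets of libraries.

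Mouse skeletal muscle grows quickly in the weeks after birth, by adding sarcomeres and cytoplasm to fibres and by laying down a collagen-rich matrix around them, and growth slows as the animal becomes a young adult. Fibres differ in the myosin heavy chain they use, with Myh7 in slow fibres and Myh2, Myh1 and Myh4 in fast fibres of types 2A, 2X and 2B. A whole muscle also holds fibroblasts, tendon cells, vessels, nerve branches with their Schwann cells, fat cells and immune cells, and its RNA is a sum over all of them.

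Levels are given in RPKM as the authors deposited them, a read count per gene divided by transcript length and by the depth of the library. Depth recovered from the steps between low values was 48.6 to 65.5 M reads per wild-type FDB library at 2 months and 43.35 to 55.05 M at 5 months. These depths are to be read as relative, since the gene lengths behind the deposited values are not known. Pearson's r across genes was 0.9938 to 0.9978 within the 12 pairs of libraries of one age and 0.9785 to 0.9912 within the 16 pairs of different ages (a description across genes, which are not replicates). Of 15 genes that define adult skeletal muscle all were measured, and their summed level was 49421 to 52769 RPKM per library at 2 months and 52253 to 56399 RPKM at 5 months. Hoxa13, which marks the distal limb in development, was at 11.01 ± 0.887 RPKM (mean ± SD, n = 4, as for every such value of a wild-type group) in wild-type FDB at 2 months and 10.6 ± 0.173 RPKM at 5 months, against 1.82 ± 0.307 in wild-type EDL and 0.534 ± 0.137 in wild-type SOL at 5 months. Dmd itself (ENSMUSG00000045103.17, chromosome X, 82948870 to 85206141, mm10) was at 11.4, 11.9, 11.9 and 11.6 RPKM in the 4 libraries at 2 months and 10.9, 12.1, 11.9 and 10.96 RPKM at 5 months, and the ages overlapped (log2 change -0.028, SE 0.077, limma adjusted p = 0.809, and the sign turned under either other scaling, as it did for Hoxa13).

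Genes of the extracellular matrix, of Schwann cells and of antigen presentation were lower in wild-type FDB at 5 months than at 2 months, as were Myh4 and genes of sterol synthesis, while Myh2, Neb, Ankrd2 and Clca4a were among the genes that were higher. Of 12541 genes tested with limma on log2(RPKM + 1), 4213 passed a Benjamini-Hochberg adjusted p of 0.05, which is 33.6%. Of these, 794 were higher at 5 months (6.33% of genes tested) and 3419 were lower (27.3%). At least 2-fold on this scale, 13 genes were higher (0.104%) and 104 were lower. The scale understates changes of genes with low values. The 4 libraries of each age did not overlap for 46.7% of the genes tested, with 5 months lower for 37.1% and higher for 9.63%, so that a lack of overlap is common in these data.

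The balance of rises and falls depended on the scaling. The median log2 change over all genes tested was -0.10 as deposited, and became 0.031 after median-of-ratios scaling and 0.028 after quantile normalization. The share of called genes that were higher was then 60.2% and 60.0%, against 18.8% as deposited. Size factors were 1.10 to 1.13 in the libraries at 2 months and 0.979 to 1.02 at 5 months. The medians of gene lists below are to be read beside the -0.10 of all genes, and their counts beside the 27.3% of all genes that fell and the 6.33% that rose.

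**Figure D1:**
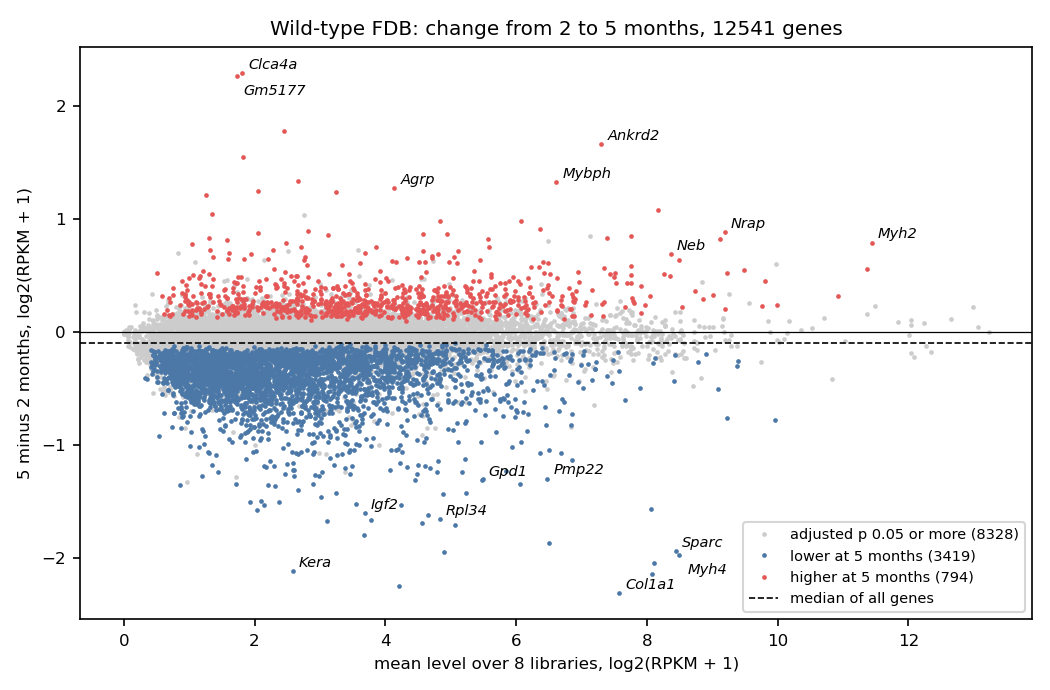
Log2 change from 2 to 5 months in wild-type FDB (vertical axis, log2(RPKM + 1)) against the mean level over the 8 libraries (horizontal axis, same scale), 1 point per gene for 12541 genes. The 794 genes higher at 5 months are in red, the 3419 lower in blue, and the dashed line marks the median of all genes at -0.10.

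Collagens and the genes that process them had more members that fell than any other list examined, in lists of unequal size. By share the Schwann cell list below, with 12 of 13, was higher. Of 31 collagens and collagen-processing genes, all tested, 27 fell, none rose and 4 did not pass, with a median log2 change of -0.87. In these whole-muscle samples, fewer cells of a type and less RNA per cell cannot be told apart. Col1a1 (ENSMUSG00000001506.10, chromosome 11, 94936224 to 94953042, mm10), a chain of type I collagen, was at 263, 319, 235 and 451 RPKM in the libraries at 2 months and 59.8, 54.1, 66.99 and 64.3 RPKM at 5 months. Every library at 2 months lay above every library at 5 months, by a mean 5.17-fold (log2 change -2.31, SE 0.29, adjusted p = 1.20e-07). Its partner Col1a2 fell by a log2 change of -2.05 and Col3a1, of type III collagen, by one of -2.14. Col3a1 was at 390.4, 441, 396 and 525 RPKM at 2 months and 98.3, 80.3, 117 and 100.3 RPKM at 5 months, so here too the ages did not overlap. Sparc, a collagen-binding glycoprotein, went from 551 ± 91.5 to 142 ± 18.3 RPKM (log2 change -1.94, adjusted p = 1.96e-14). Col5a1, of the collagen that starts fibrils, and Col6a1 and Col6a2, of type VI collagen, fell by log2 changes of -1.31, -1.23 and -1.24. Lox, the enzyme that cross-links collagen, fell by a log2 change of -0.95.

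The rest of the matrix moved in the same direction. Of 27 further matrix and remodelling genes tested, 19 fell, none rose and 8 did not pass (median -0.78). Elastin, Eln, was at 45.02, 35.97, 32.5 and 33.4 RPKM at 2 months and 13.6, 8.62, 10.1 and 13.3 RPKM at 5 months, with no overlap (log2 change -1.61, adjusted p = 1.41e-06). Mfap4, a microfibril-associated protein, fell by a log2 change of -1.502, Ogn, a small leucine-rich proteoglycan, by one of -1.42, and Fbn1, the main microfibril protein, by one of -1.06. Fmod, a proteoglycan of tendon that binds collagen fibrils, was at 399 ± 97.4 RPKM and then 132 ± 19.4 RPKM (log2 change -1.57, SE 0.44, adjusted p = 0.00545).

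Genes of tendon and cartilage and of the fibroblast lineage moved with them. Of 16 tendon and cartilage genes tested, 10 fell and none rose, with a median of -0.98, and their summed level was 757 to 1252 RPKM per library at 2 months and 426 to 557 RPKM at 5 months. Kera, a proteoglycan of cornea and tendon, was at 5.28, 9.41, 5.04 and 15.9 RPKM at 2 months and 1.04, 0.877, 1.72 and 0.807 RPKM at 5 months. The 2 ages did not overlap, although the libraries at 2 months spread widely. Cilp2, a cartilage matrix protein, fell by a log2 change of -1.798, Tnmd, a marker of tendon cells, by one of -1.43, Chad by one of -1.43 and Comp by one of -1.12. Scx, the transcription factor that defines tendon cells, was at 12.5, 8.65, 7.92 and 8.12 RPKM and then at 7.21, 7.39, 8.31 and 8.31 RPKM. Its ages overlapped (log2 change -0.21, adjusted p = 0.3999), and Acan, the main proteoglycan of cartilage, was at 0.0677 RPKM or less in all 8 libraries. Whether the amount of tendon dissected with the muscle had a part in the matrix result was not tested.

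Of 14 genes marking fibroadipogenic progenitors, the resident fibroblasts of muscle, 11 fell and none rose (median -0.61). Pdgfra, their defining receptor, was at 13.9, 16.96, 14.9 and 12.7 RPKM at 2 months and 10.2, 9.18, 11.3 and 9.72 RPKM at 5 months (log2 change -0.49, adjusted p = 0.00252). Its fall on the log2 scale was smaller than those of Pi16 (-1.22), a marker of a fibroblast subset, and of the collagens above. Clec3b, a secreted protein of fibroblasts, fell by a log2 change of -0.97, and C1qtnf6, a secreted protein with a collagen-like stretch, went from 12.2 ± 1.73 to 3.11 ± 0.334 RPKM (log2 change -1.67, adjusted p = 3.67e-10).

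**Figure D2:**
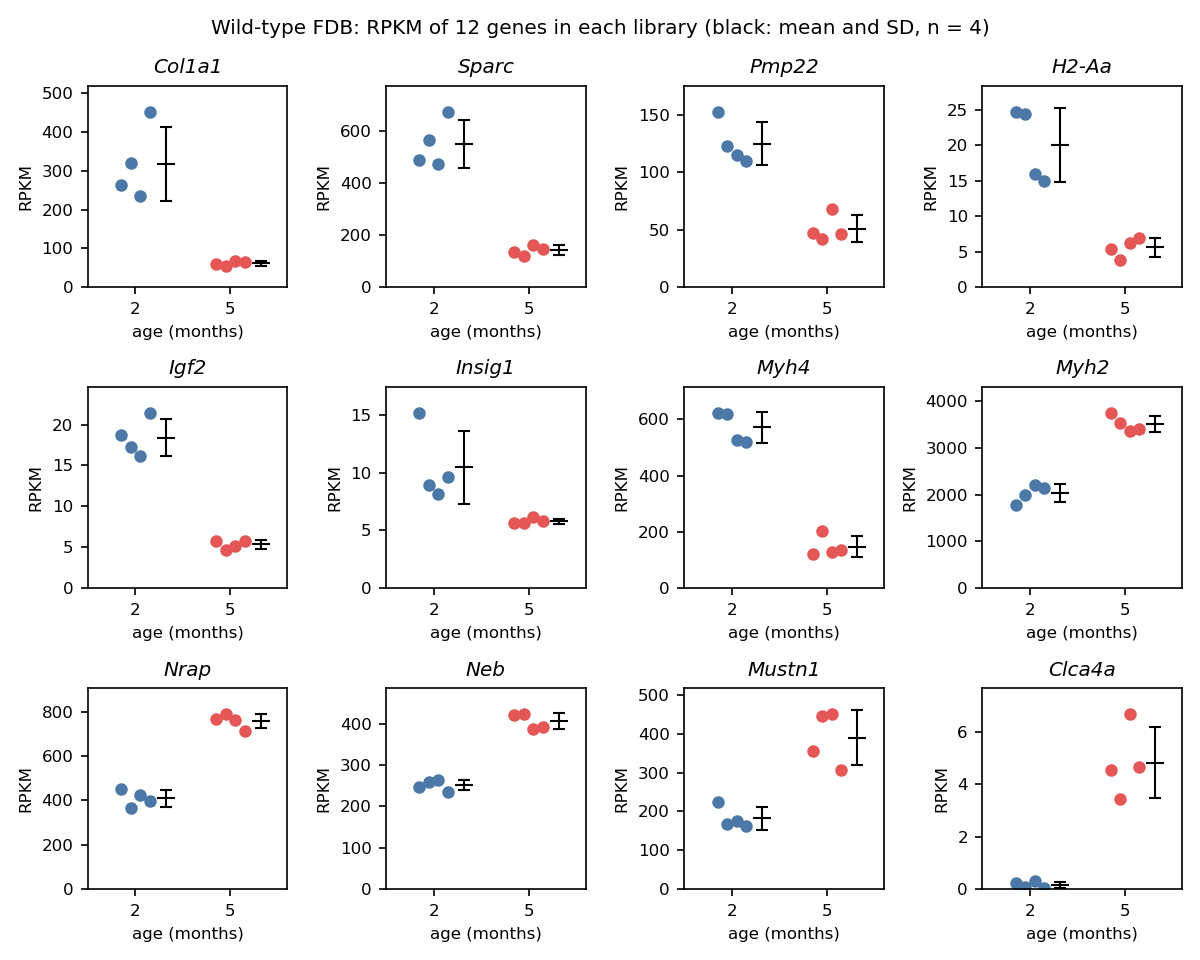
RPKM (vertical axes, from 0) of 12 genes in each wild-type FDB library at 2 months (blue) and 5 months (red), with the mean and SD of 4 libraries in black. In all 12 genes the 2 ages do not overlap.

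Genes of Schwann cells, which wrap the axons of the nerve, were lower at 5 months. Of 13 tested, 12 fell, none rose and 1 did not pass, with a median of -0.86, and the summed level was 320.1 to 437 RPKM at 2 months and 108 to 177 RPKM at 5 months. Pmp22 (ENSMUSG00000018217.12, chromosome 11, 63128982 to 63159547, mm10), a membrane protein of peripheral myelin, was at 152, 123, 115 and 110.3 RPKM at 2 months and 46.8, 42.2, 68.4 and 45.9 RPKM at 5 months. The library ns15 was the highest of its age, as it was for Mbp and Prx, and still lay below all libraries at 2 months (log2 change -1.296, SE 0.19, adjusted p = 1.65e-06). Mbp and Prx, also of the myelin sheath, fell by log2 changes of -1.53 and -1.203. Sox10, the transcription factor that defines the Schwann lineage, went from 4.08, 2.96, 3.14 and 2.91 to 1.47, 1.48, 1.95 and 1.87 RPKM (log2 change -0.66, adjusted p = 0.00959). In wild-type EDL 2 of the 13 genes fell and in wild-type SOL 2, with medians of -0.39 and -0.23, and none of the 13 differed between wild-type FDB and either muscle by the test of the difference of age changes.

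Genes of antigen presentation were lower at 5 months. Of 13 tested, 10 fell and none rose (median -0.62). H2-Aa (ENSMUSG00000036594.15, chromosome 17, 34282744 to 34287823, mm10), a chain of an MHC class II molecule that presents peptides to helper T cells, was at 24.7, 24.4, 15.9 and 15.01 RPKM at 2 months and 5.39, 3.77, 6.24 and 6.96 RPKM at 5 months. The ages did not overlap, although the libraries at 2 months fell into a higher and a lower pair (log2 change -1.66, SE 0.32, adjusted p = 9.42e-05). H2-Ab1 (-1.52), H2-Eb1 (-1.46) and Cd74 (-1.69), the class II invariant chain, fell by similar amounts on the log2 scale. B2m, the shared subunit of class I molecules, fell less, from 83.8 ± 6.74 to 54.1 ± 4.099 RPKM (log2 change -0.62, adjusted p = 0.00398).

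Markers of the cells that carry these molecules were less stable. Of 24 macrophage genes, 8 fell and none rose (median -0.62), and 3 fell under either other scaling. The share that fell was near the 27.3% of all genes tested. For 17 of the 24 the ages did not overlap, all lower at 5 months, while 37.1% of all genes tested were lower without overlap. Adgre1, which encodes the macrophage antigen F4/80, was at 2.68, 3.24, 2.44 and 2.45 RPKM and then 1.48, 1.23, 1.89 and 1.54 RPKM without overlap, and did not pass (log2 change -0.55, adjusted p = 0.0689). Its adjusted p ran from 0.000867 to 0.208 over the alternatives. Lyz2, Csf1r and Tyrobp passed with adjusted p of 0.04304, 0.0444 and 0.04605, and lost their calls in 6, 6 and 7 of the 8 fits that left out 1 library: without any of ns09, ns10, ns12, ns13, ns14 and ns16 for all 3 genes, and also without ns11 for Tyrobp (adjusted p 0.000592 to 0.131, 0.000958 to 0.128 and 0.0003404 to 0.12004 over the alternatives). Of 12 complement genes 6 fell and none rose, among them C3, the central component, with a log2 change of -1.04 (adjusted p = 0.00151). Of 8 neutrophil and mast cell genes tested, the 5 that fell were the mast cell genes Cma1, Mcpt4, Tpsb2, Cpa3 and Kit. The mast cell proteases Cma1, Mcpt4 and Tpsb2 fell by log2 changes of -1.400, -1.27 and -1.22. Only 1 of the B and plasma cell genes and none of the T and NK cell genes reached the level needed for testing, and the latter summed to at most 1.65 RPKM in any library.

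Promoter sequence is printed for members of the antigen presentation list and of the sterol synthesis list described next, since these are lists whose members fell together and hold many matches to one short motif. Each is the 250 bases before the annotated start of the gene, from RefSeq on GRCm38.p6, the assembly also called mm10, with the letters CCAAT (or ATTGG, the same on the other strand) in capitals. The H2-Aa window is chr17:34287824-34288073 on the minus strand, that of H2-Eb1 chr17:34305617-34305866 on the plus strand, that of Insig1 chr5:28071162-28071411 on the plus strand and that of Hmgcs1 chr13:119690101-119690350 on the plus strand.
H2-Aa: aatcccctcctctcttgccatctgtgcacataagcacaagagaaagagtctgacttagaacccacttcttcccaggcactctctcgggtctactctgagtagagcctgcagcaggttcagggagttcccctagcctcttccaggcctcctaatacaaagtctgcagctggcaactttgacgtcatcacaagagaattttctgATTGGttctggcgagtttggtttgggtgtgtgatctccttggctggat
H2-Eb1: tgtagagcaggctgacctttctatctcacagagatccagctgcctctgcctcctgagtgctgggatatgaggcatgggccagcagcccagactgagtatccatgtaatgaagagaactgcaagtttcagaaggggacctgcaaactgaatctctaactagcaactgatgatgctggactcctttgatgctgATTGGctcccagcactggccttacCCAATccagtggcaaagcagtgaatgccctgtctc
Insig1: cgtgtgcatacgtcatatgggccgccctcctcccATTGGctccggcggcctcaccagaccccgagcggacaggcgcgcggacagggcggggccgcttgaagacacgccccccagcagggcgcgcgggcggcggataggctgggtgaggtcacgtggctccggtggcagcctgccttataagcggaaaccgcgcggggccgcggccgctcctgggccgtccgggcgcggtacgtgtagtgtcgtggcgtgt
Hmgcs1: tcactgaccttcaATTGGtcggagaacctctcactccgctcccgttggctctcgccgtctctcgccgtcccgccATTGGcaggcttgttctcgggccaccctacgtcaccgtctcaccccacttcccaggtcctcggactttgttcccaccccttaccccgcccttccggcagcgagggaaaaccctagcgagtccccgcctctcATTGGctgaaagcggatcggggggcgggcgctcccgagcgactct

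CCAAT stood in the window of 9 of the 10 antigen presentation genes and 13 of the 16 sterol and fatty acid synthesis genes with an entry, and in 33.8% of all 32544 promoters of that length. It was shown after the matches to 12 motifs, searched on both strands, had been seen. The longer forms GATTGG and CTGATTGG, which contain it, stood in 9 and 5 of the 10 and in 7 and 3 of the 16, against 14.5% and 3.80% of all promoters. For TCACCCCAC, part of the sterol regulatory element, the counts were 0 and 1 (0.501% of all promoters). CACGTG was in 0 and 3 (6.03%), GGGGCGGGG in 2 and 2 (10.5%), CAGCTG in 2 and 3 (13.1%), CATTCC in 0 and 1 (12.6%), TGACGTCA in 1 and 0 (1.55%) and the CArG box, the site of serum response factor, in 0 and 0 (1.48%). The other 2 motifs searched, a longer form of TCACCCCAC and 1 case of the CArG box, were in none of these genes. A gene was counted if any of its promoters matched, while the percentages are shares of promoters, so the counts and percentages differ in unit. A match is a description of these letters, not of a bound site.

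Genes of fatty acid and cholesterol synthesis were lower at 5 months. Of 24 tested, 16 fell, none rose and 8 did not pass (median -0.41; under median-of-ratios scaling 12 fell and 1 rose). Insig1, an endoplasmic reticulum protein that restrains sterol synthesis, was at 15.2, 8.92, 8.21 and 9.596 RPKM at 2 months and 5.64, 5.68, 6.13 and 5.79 RPKM at 5 months. The library ns09 was the highest and the ages did not overlap (log2 change -0.72, adjusted p = 9.38e-06). Hmgcs1, an early enzyme of the pathway, fell by a log2 change of -0.47, and Sqle, Cyp51 and Msmo1, later ones, by -0.63, -0.60 and -0.74. Scd2, a fatty acid desaturase, was the member of the list with the greatest fall, from 17.3 ± 3.13 to 8.11 ± 2.04 RPKM (log2 change -1.01, adjusted p = 0.000373). Its level was highest in ns15 among the libraries at 5 months, as for Prx, and the part of myelin-forming cells in it was not tested.

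Igf2, Igf1, Igfbp5 and Igfbp7 were lower at 5 months. Of 20 genes of insulin-like growth factor signalling and mTOR, 11 fell and none rose (median -0.42; 3 rose under either other scaling). Igf2 (ENSMUSG00000048583.16, chromosome 7, 142650766 to 142666816, mm10), a fetal growth factor, was at 18.7, 17.3, 16.1 and 21.4 RPKM at 2 months and 5.78, 4.69, 5.204 and 5.74 RPKM at 5 months (log2 change -1.605, SE 0.37, adjusted p = 0.0006798). Igf1, the growth factor of postnatal life, was at 13.2, 14.5, 12.6 and 14.9 RPKM and then 6.19, 5.29, 6.84 and 6.38 RPKM (log2 change -1.05, adjusted p = 1.47e-07). Neither gene's ages overlapped. The binding proteins Igfbp5 and Igfbp7 fell by log2 changes of -1.13 and -0.88.

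Igf2 is also imprinted, expressed from one parental copy, and of 16 imprinted growth genes tested 12 fell and none rose (median -0.64; 1 rose under either other scaling). Meg3 and Rian, non-coding RNAs of one imprinted cluster, went from 5.15 ± 1.03 to 1.704 ± 0.413 RPKM and from 7.43 ± 2.102 to 3.01 ± 0.862 RPKM (log2 changes -1.18 and -1.07). Grb10, an adaptor that restrains insulin signalling, fell by a log2 change of -0.91. H19, the RNA next to Igf2, was at 71.7, 67.2, 76.03 and 99.97 RPKM and then at 55.4, 52.2, 77.4 and 53.4 RPKM, overlapped through ns15, and did not pass (log2 change -0.40, adjusted p = 0.279). Its adjusted p ran from 0.042 to 0.547 over the alternatives.

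Vessel and fat markers moved too. Of 16 endothelial genes, 11 fell and none rose (median -0.47), from Pecam1, a junction protein that defines the lineage (-0.57), to Plvap (-0.85) and Cldn5 (-1.05). Of 15 smooth muscle and pericyte genes, 7 fell and 2 rose, Synpo2 and Mustn1, both of which skeletal muscle also expresses (median -0.46). Pdgfrb, the pericyte receptor, was at 10.97, 11.3, 9.69 and 10.5 RPKM and then at 6.597, 6.51, 6.17 and 6.92 RPKM, without overlap (log2 change -0.62, adjusted p = 1.00e-05). Acta2 and Tagln, contractile proteins of smooth muscle, fell by log2 changes of -1.18 and -1.24, and without the library ns09, which held 61.5 and 66.5 RPKM of them, their adjusted p were 0.0620 and 0.0916. Tagln also lost its call without ns14, with an adjusted p of 0.0552 (adjusted p over the alternatives 7.14e-05 to 0.0916, for Acta2 0.000267 to 0.06198).

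Of 13 fat cell genes, 6 fell and none rose (median -0.54). Cfd, the fat cell protease adipsin, was at 38.1, 19.9, 30.4 and 27.8 RPKM at 2 months and 11.1, 1.82, 5.18 and 5.82 RPKM at 5 months. All libraries at 2 months were higher, and those at 5 months spread over several-fold (log2 change -2.25, SE 0.56, adjusted p = 0.00171). Adipoq, the fat cell hormone adiponectin, fell by a log2 change of -1.57 and Fabp4, a fatty acid carrier of fat cells and capillaries, by one of -0.61.

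**Figure D3:**
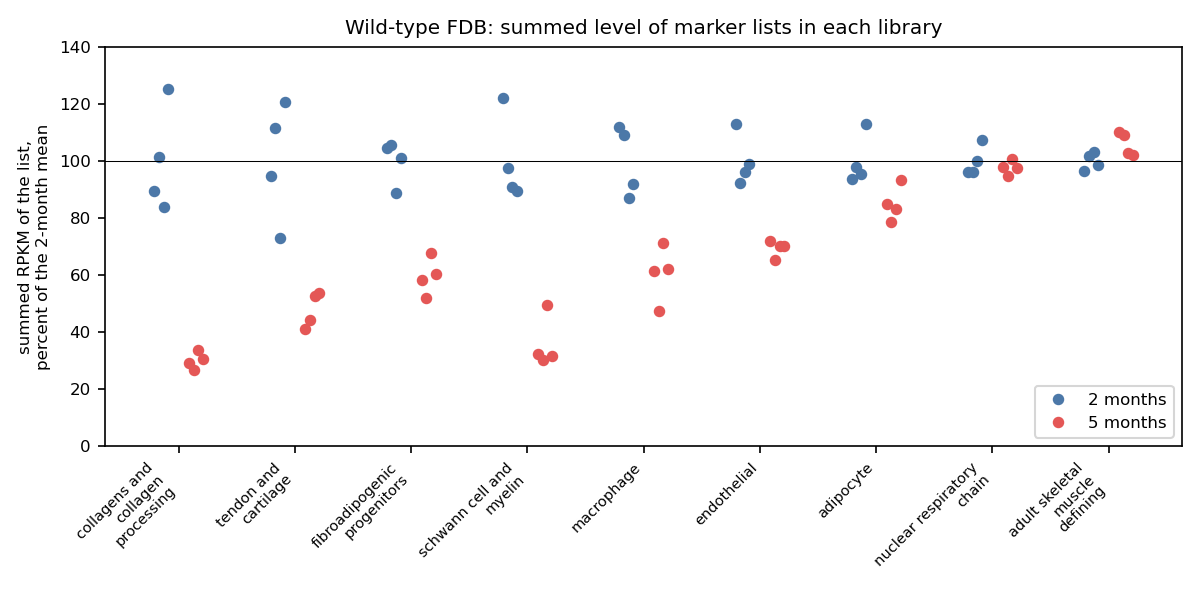
Summed RPKM of 9 gene lists in each wild-type FDB library, as a percentage of that list's mean at 2 months (vertical axis, from 0), with 2 months in blue and 5 months in red. The first 6 lists and, narrowly, the adipocyte list lie lower in every library at 5 months. In those of the respiratory chain and of adult skeletal muscle the ages overlap.

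Among the adult myosin heavy chains, Myh2 rose and Myh4 fell, and the other two did not pass. Myh4 (ENSMUSG00000057003.12, chromosome 11, 67238029 to 67260446, mm10), of type 2B fibres, was at 621, 618, 526 and 520.4 RPKM at 2 months and 122, 203, 129 and 136 RPKM at 5 months. Every library at 5 months was lower, by a mean 3.87-fold (log2 change -1.97, SE 0.75, adjusted p = 0.0379). The call was lost under median-of-ratios scaling, without the filter on low values and in 7 of the 8 fits that left out 1 library, all but that without ns14 (adjusted p 2.15e-05 to 0.0793 over the alternatives). The fit shares 1 estimate of the spread of Myh4 over all groups, and in wild-type SOL at 5 months it ranged from 5.24 to 427 RPKM.

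Myh2, of type 2A fibres, was at 1781, 1996, 2206 and 2152 RPKM at 2 months and 3748, 3532, 3376 and 3415 RPKM at 5 months, again without overlap (log2 change 0.79, SE 0.24, adjusted p = 0.00939). Quantile normalization ended its call (adjusted p = 0.331, the range over the alternatives being 6.67e-05 to 0.331). Myh1, of type 2X fibres and the most abundant of the family per length, was at 3943, 4347, 4123 and 3687 RPKM and then 4868, 4892, 3749 and 3911 RPKM, which overlapped (log2 change 0.11, adjusted p = 0.749). Myh7, of slow fibres, was at 254 ± 17.9 and 261 ± 18.2 RPKM (adjusted p = 0.959). In mean RPKM the order at 2 months was Myh1, Myh2, Myh4 and Myh7, and at 5 months Myh7 stood above Myh4.

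Few other fibre-type genes passed. Of 17 fast fibre genes 1 rose and 3 fell, and of 16 slow fibre genes 3 rose and none fell (medians 0.051 and 0.029). The slow fibre genes that rose were Lmod2 (0.64), an actin nucleator, Myoz2 (0.59), a Z-disc protein that binds calcineurin, and Fhl1 (0.56), whose call ended under quantile normalization (adjusted p = 0.498, range 0.000149 to 0.498). Pvalb, the calcium buffer of fast fibres, and Myl2, the slow regulatory light chain, had log2 changes of -0.41 and 0.12 (adjusted p = 0.416 and 0.815). For Pvalb the ages did not overlap, and its adjusted p ran from 0.0028 to 0.646 over the alternatives. For Myl2 it ran from 0.256 to 0.924.

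Ankrd2, Mustn1 and Neb were among single genes of the muscle that rose, and no list of stretch response genes was tested. Ankrd2 (ENSMUSG00000025172.3, chromosome 19, 42036000 to 42045110, mm10), a muscle ankyrin repeat protein induced by stretch, was at 108, 32.96, 58.8 and 122 RPKM at 2 months and 242, 266, 268 and 158 RPKM at 5 months. The ages did not overlap, and both spread widely (log2 change 1.67, SE 0.37, adjusted p = 0.000462). Mustn1, a small protein expressed in skeletal muscle and vessel walls, was at 226, 168, 175 and 161 RPKM and then at 357, 447, 451 and 307 RPKM (log2 change 1.09, adjusted p = 0.000135). Neb, the nebulin that runs along the thin filament, was at 247, 259, 265 and 236 RPKM and then 422, 423, 388 and 392 RPKM, with little spread at either age (log2 change 0.69, adjusted p = 3.00e-07).

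A further group was named after its values were seen: Nrap and Nexn, which bind actin at the ends of myofibrils and at the Z-disc, Xirp2, an actin-binding protein of the same sites, the intermediate filament gene Nes and the small heat shock gene Hspb7. Nrap (ENSMUSG00000049134.15, chromosome 19, 56320035 to 56390037, mm10) was at 452, 365, 423 and 399 RPKM at 2 months and 766, 789, 764 and 714 RPKM at 5 months (log2 change 0.89, SE 0.12, adjusted p = 2.45e-07). Xirp2 was at 125, 115, 126 and 109.9 RPKM and then at 190.1, 232, 243 and 191 RPKM. Neither gene's ages overlapped, and the same held for Nexn, Nes and Hspb7, with log2 changes of 0.85, 0.87 and 0.83. Uchl1, a ubiquitin hydrolase best known from neurons (0.98), the kinase genes Mylk4 (0.92) and Sbk3 (0.98) and Trdn, which anchors the calcium store at the triad (0.52), rose as well.

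Mybph, a relative of myosin-binding protein C, was at 58.3, 28.4, 53.6 and 84.2 RPKM at 2 months and 171, 148, 152 and 81.2 RPKM at 5 months. The library ns16 at 5 months lay below ns12 at 2 months, so the ages overlapped (log2 change 1.33, SE 0.49, adjusted p = 0.0322). Its call was lost without any one of ns09, ns10, ns11, ns13, ns14 and ns15, with a pseudocount of 0.1 and without the filter (adjusted p 0.00597 to 0.132). It was the only one of 11 embryonic and perinatal sarcomere genes to pass. The developmental myosins Myh3 and Myh8 were at 8.95 ± 0.7801 and 5.85 ± 0.824 RPKM at 2 months and at 13.2 ± 2.44 and 8.21 ± 0.956 RPKM at 5 months (adjusted p = 0.428 and 0.412). Their adjusted p ran from 0.00526 to 0.586 and from 0.0046 to 0.556 over the alternatives, and for Myh3 the ages did not overlap.

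Clca4a, of a family of calcium-activated chloride channel regulators, had the largest log2 rise among the genes named by size of change. It was at 0.216, 0.0957, 0.293 and 0.0604 RPKM at 2 months and 4.53, 3.44, 6.68 and 4.66 RPKM at 5 months (log2 change 2.297, SE 0.081, adjusted p = 6.12e-27). All 4 libraries at 2 months were near 0, and the ratio of the mean RPKM was 28.996-fold. Agrp, known as a hypothalamic neuropeptide that drives feeding, went from 9.28 ± 0.9195 to 23.9 ± 1.98 RPKM (log2 change 1.28, adjusted p = 1.12e-08). Gbp10, an interferon-inducible GTPase with close copies in the genome, went from 4.58 ± 0.613 to 12.4 ± 2.44 RPKM (log2 change 1.25). It is uncertain for that reason, and of 21 interferon response genes 3 fell and none rose.

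Few genes of energy metabolism passed. Of 63 nuclear genes of the respiratory chain none passed (median -0.013), with 4 rises under median-of-ratios scaling, and 3 rises and 2 falls under quantile normalization. Of 26 genes of fatty acid uptake and oxidation 3 rose and 3 fell, with 9 rises under median-of-ratios scaling, and of 19 of the tricarboxylic acid cycle 2 fell. Of 27 glycolysis and glycogen genes 1 rose and 4 fell. Gpd1, the cytosolic glycerol phosphate dehydrogenase that links glycolysis to lipid synthesis, was at 54.1, 70.4, 61.1 and 64.6 RPKM at 2 months and 24.6, 21.7, 25.5 and 26.5 RPKM at 5 months, without overlap (log2 change -1.31, SE 0.16, adjusted p = 7.19e-08). Pfkfb3, which makes the activator of phosphofructokinase, fell by a log2 change of -0.83 with overlap (adjusted p = 0.0291), and lost its call under both other scalings and without any one of ns10, ns13, ns15 and ns16 (range 0.010999 to 0.136).

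**Figure D4:**
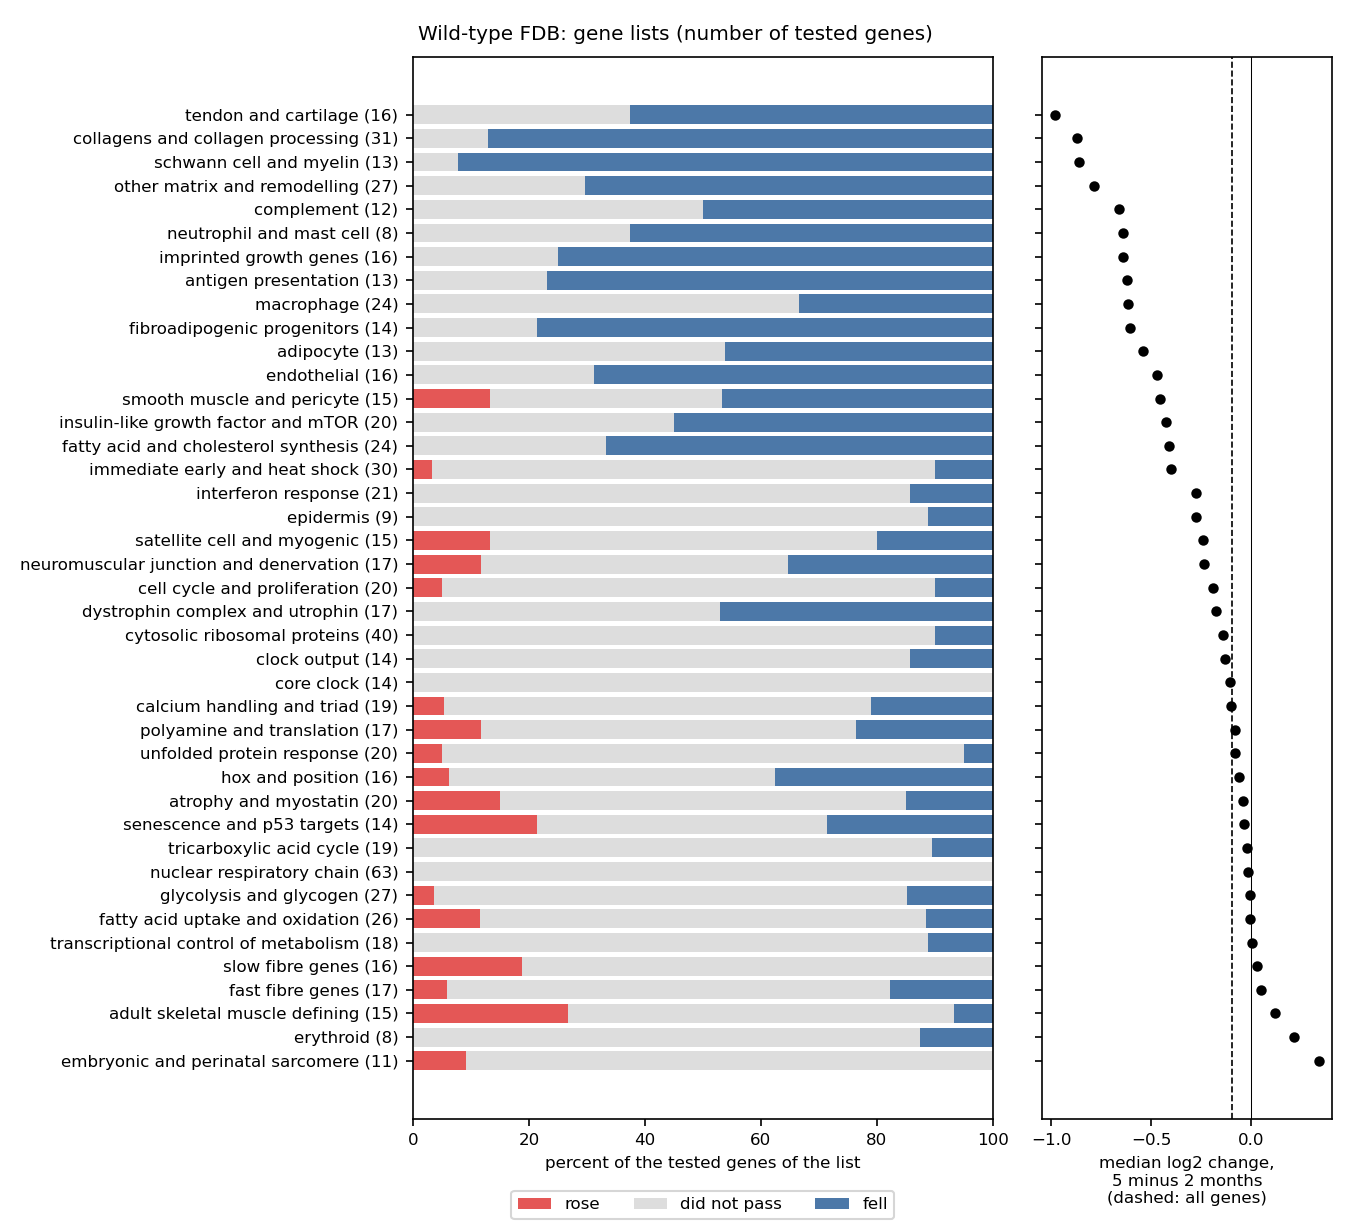
Gene lists with at least 8 tested genes in wild-type FDB, with the number tested in brackets. Left, the percentage of tested genes that rose (red), did not pass (grey) or fell (blue) at an adjusted p of 0.05. Right, the median log2 change of each list, with that of all genes (-0.10) dashed.

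At the neuromuscular junction, 6 of 17 genes fell and 2 rose (median -0.23, and 2 fell under median-of-ratios scaling and 4 under quantile normalization), shares near the 27.3% and 6.33% of all genes. Chrne, the adult subunit of the acetylcholine receptor, was at 40.8, 48.4, 43.8 and 43.3 RPKM at 2 months and 27.9, 28.6, 28.5 and 31.6 RPKM at 5 months (log2 change -0.58, adjusted p = 9.91e-06). Chrnd, another subunit, fell by a log2 change of -0.47, while Musk, the kinase that clusters the receptor, rose by one of 0.37 (adjusted p = 0.0223, lost with a pseudocount of 0.1 and without ns12 or ns14, range 0.00152 to 0.115). Of 17 genes of the dystrophin complex and utrophin 8 fell and none rose (median -0.17), while 1 fell and 1 rose under median-of-ratios scaling, and 3 fell and 1 rose under quantile normalization. Utrn, the autosomal relative of dystrophin, went from 6.51 ± 0.3702 to 4.65 ± 0.504 RPKM (log2 change -0.41, adjusted p = 0.009997), and its call ended under both scalings (range 6.54e-06 to 0.0562).

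Satellite cells, the stem cells of muscle, are defined by Pax7, which was at 0.682, 0.806, 0.643 and 0.741 RPKM at 2 months and 0.467, 0.543, 0.485 and 0.514 RPKM at 5 months. The ages did not overlap, but it did not pass (log2 change -0.19, adjusted p = 0.161, range over the alternatives 0.00188 to 0.763). Of 15 satellite cell and myogenic genes 2 rose and 3 fell, among the latter the Notch receptor Notch3 (-0.53) and its target Heyl (-0.55). Which cells of the whole muscle the RNA of Notch3 and Heyl came from was not tested. Of 20 cell cycle genes 2 fell and 1 rose. Mki67, which marks dividing cells, was under the level for testing, at 0.346, 0.186, 0.165 and 0.144 RPKM and 0.0592, 0.03902, 0.0588 and 0.0799 RPKM. Stmn1, a microtubule regulator of dividing cells and neurons, fell by a log2 change of -0.88.

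Among genes of muscle wasting and cell stress, Cdkn1a, the cell cycle inhibitor p21, fell from 14.8 ± 3.74 to 6.82 ± 0.9996 RPKM (log2 change -0.99, adjusted p = 0.00267). Fstl1, a secreted follistatin-like protein, fell by a log2 change of -1.04. Eda2r, a receptor of the tumour necrosis factor family and a p53 target, was at 8.86, 8.05, 10.4 and 7.995 RPKM and then at 15.6, 15.2, 15.3 and 13.6 RPKM, so it rose without overlap (log2 change 0.70, adjusted p = 0.0004802). Of 14 senescence and p53 target genes 3 rose and 4 fell, and of 20 atrophy and myostatin genes 3 and 3.

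Among genes that give limb segments their identity, Hoxa13 (above) did not pass (adjusted p = 0.651), and Hoxd13 fell, at 2.06, 1.904, 2.14 and 2.51 RPKM at 2 months and 1.43, 1.19, 1.52 and 1.37 RPKM at 5 months (log2 change -0.41, adjusted p = 3.06e-07). Tbx4, which specifies the hindlimb, fell by a log2 change of -0.58 (adjusted p = 1.85e-07). Of 16 such genes 6 fell and 1 rose, with 4 and 3 falls and 3 rises each under the other scalings.

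The age changes of wild-type FDB were then compared with those of the 2 leg muscles by testing the difference itself. All of these differences use the same 8 wild-type FDB libraries. For wild-type EDL, 406 of 12541 genes differed (3.24%), 2.03% with a higher value in FDB and 1.2% with a lower one, and for wild-type SOL 318 (2.54%), 0.917% higher and 1.62% lower. A fit of the 6 wild-type groups alone gave 1695 and 1471 genes. Without ns14 the counts were 249 and 168, and for SOL also 211 without ns10 and 205 without ns12. Within wild-type EDL, 23.8% of genes passed with age (2.57% higher, 21.2% lower), and within wild-type SOL 17.3% (3.58% higher, 13.7% lower). The matrix fell in all 3 muscles: 28 of the 31 collagen genes fell in wild-type EDL and 29 in wild-type SOL, with medians of -1.14 and -1.14. Col1a1 fell by a log2 change of -4.04 in EDL, from 435 ± 83.03 to 26.97 ± 10.6 RPKM, more than in FDB (difference FDB minus EDL 1.73, SE 0.41, adjusted p = 0.0125). For Col1a2 that difference was 1.38 (adjusted p = 0.016000).

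The 12 genes described above from Ankrd2 to Trdn, several of them chosen after their values were seen, gave mixed results in this test. Neb, Nes, Xirp2, Nrap, Uchl1 and Mylk4 differed from both leg muscles, Nexn from EDL, and Mustn1 and Sbk3 from SOL. Ankrd2, which had the greatest log2 rise of the 12 in FDB, passed against neither (differences 1.41 and 1.44, SE 0.52 and 0.52, adjusted p = 0.1303 and 0.1304), and neither did Hspb7 (adjusted p = 0.184 and 0.111) or Trdn (0.0615 and 0.924). Against EDL, Mustn1 and Sbk3 had adjusted p of 0.0897 and 0.0644, and Nexn had 0.395 against SOL. Neb changed by 0.045 in EDL and 0.048 in SOL on the log2 scale, so the FDB change exceeded them by 0.64 and 0.64 (adjusted p = 0.00226 and 0.00293). Nes differed by 1.08 and 1.13, Xirp2 by 0.67 and 0.74, and Nrap by 0.72 and 0.63. The Nrap differences were lost under quantile normalization, and that with SOL also without any one of ns10, ns12, ns13 and ns14 (adjusted p 1.59e-05 to 0.06098 and 0.000149 to 0.11999). Mybph fell in EDL, from 36.4 ± 6.07 to 4.33 ± 1.98 RPKM, and differed by 4.200 from EDL and 2.49 from SOL (adjusted p = 0.000171 and 0.0382). The second was lost without the filter and without any one of ns09, ns10, ns11, ns13, ns14 and ns15 (range 0.00875 to 0.101). Mylk4 differed by 1.12 from EDL, a call lost without any one of ns09, ns10, ns12, ns13 and ns14 (range 0.00244 to 0.07198), and by 1.38 from SOL (adjusted p = 0.00829). Uchl1 differed by 1.37 from EDL and 0.96 from SOL, the latter lost with a pseudocount of 0.1 and without ns12, ns14, ns15 or ns16 (range 0.0156 to 0.0901). Nexn differed from EDL by 0.75 and Mustn1 from SOL by 1.38. Sbk3 differed from SOL by 1.197, a call lost with a pseudocount of 0.1 and without ns09, ns10, ns13, ns14 or ns15 (range 0.0103 to 0.102).

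Clca4a and Agrp were also among the genes that rose more in wild-type FDB. Clca4a was at 0.0212 ± 0.00442 RPKM in wild-type EDL and 0.00731 ± 0.00587 RPKM in wild-type SOL at 5 months, and differed by 2.27 and 2.302 (adjusted p = 2.82e-20 and 1.63e-20). Agrp differed by 1.33 and 1.21, the latter not past the threshold with a pseudocount of 0.1 (adjusted p = 0.0883, range 4.79e-06 to 0.0883). Ppargc1a, the coactivator of mitochondrial genes, differed from SOL by 1.596, since it fell there from 23.99 ± 4.17 to 9.66 ± 0.6902 RPKM, while in FDB it was at 7.61, 4.86, 8.65 and 4.94 and then 8.98, 7.88, 8.25 and 9.08 RPKM and did not pass. Its adjusted p in FDB ran from 0.0261 to 0.405 over the alternatives. Angptl7, a secreted angiopoietin-like protein, differed from EDL by 2.23, having fallen in EDL by -3.07 and not having passed in FDB (-0.84, adjusted p = 0.0876, range over the alternatives 0.0049 to 0.21).

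In the opposite direction, Coch, a matrix protein best known from the inner ear, was at 36.5, 73.7, 29.4 and 59.6 RPKM at 2 months and 8.63, 10.2, 27.3 and 13.8 RPKM at 5 months in wild-type FDB, without overlap. In both leg muscles it was under 1 RPKM at both ages, and the differences were -1.696 with EDL and -1.802 with SOL (adjusted p = 0.0104 and 0.00689). Kcne1l, a regulatory subunit of potassium channels, was at 42.2, 49.6, 45.98 and 47.3 RPKM and then 12.2, 10.8, 9.14 and 13.2 RPKM in wild-type FDB, and differed by -2.61 from EDL and -1.18 from SOL. The difference from SOL was lost with a pseudocount of 0.1, under median-of-ratios scaling and without any one of ns10, ns12, ns14 and ns15 (range 0.000287 to 0.368). Dkk3, a secreted protein of the Dickkopf family, fell in FDB (-0.77) and rose in EDL from 9.63 ± 2.46 to 41.4 ± 9.48 RPKM (difference -2.76, adjusted p = 3.58e-10). Its relative Dkk2, a Wnt antagonist, fell in FDB (-0.76) and rose in SOL (0.57), a difference of -1.33.

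Actr3b, an actin-related protein, rose in both leg muscles and was at 0.4801 ± 0.112 and 0.324 ± 0.0496 RPKM in wild-type FDB, differences of -1.896 and -1.299. Cidea, a lipid droplet protein, fell in FDB from 5.28 ± 0.788 to 2.67 ± 0.134 RPKM and rose in SOL from 2.87 ± 0.377 to 5.14 ± 0.527 RPKM (difference -1.43, adjusted p = 4.14e-08). Gpd1 differed from EDL by -1.13 and Pfkfb3 by -1.701, the latter with an adjusted p of 0.0502 without ns10 (range 0.00747 to 0.0502). Chrne differed by -0.49 from EDL, where the call was lost with a pseudocount of 0.1 and without any one of ns10, ns13, ns14 and ns15 (range 0.0138 to 0.0756), and by -0.70 from SOL. Chrnd differed from SOL by -0.80. Hoxd13, near 0 in both leg muscles, differed by -0.41 and -0.41, and quantile normalization ended both calls (adjusted p = 0.0941 and 0.0770).

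**Figure D5:**
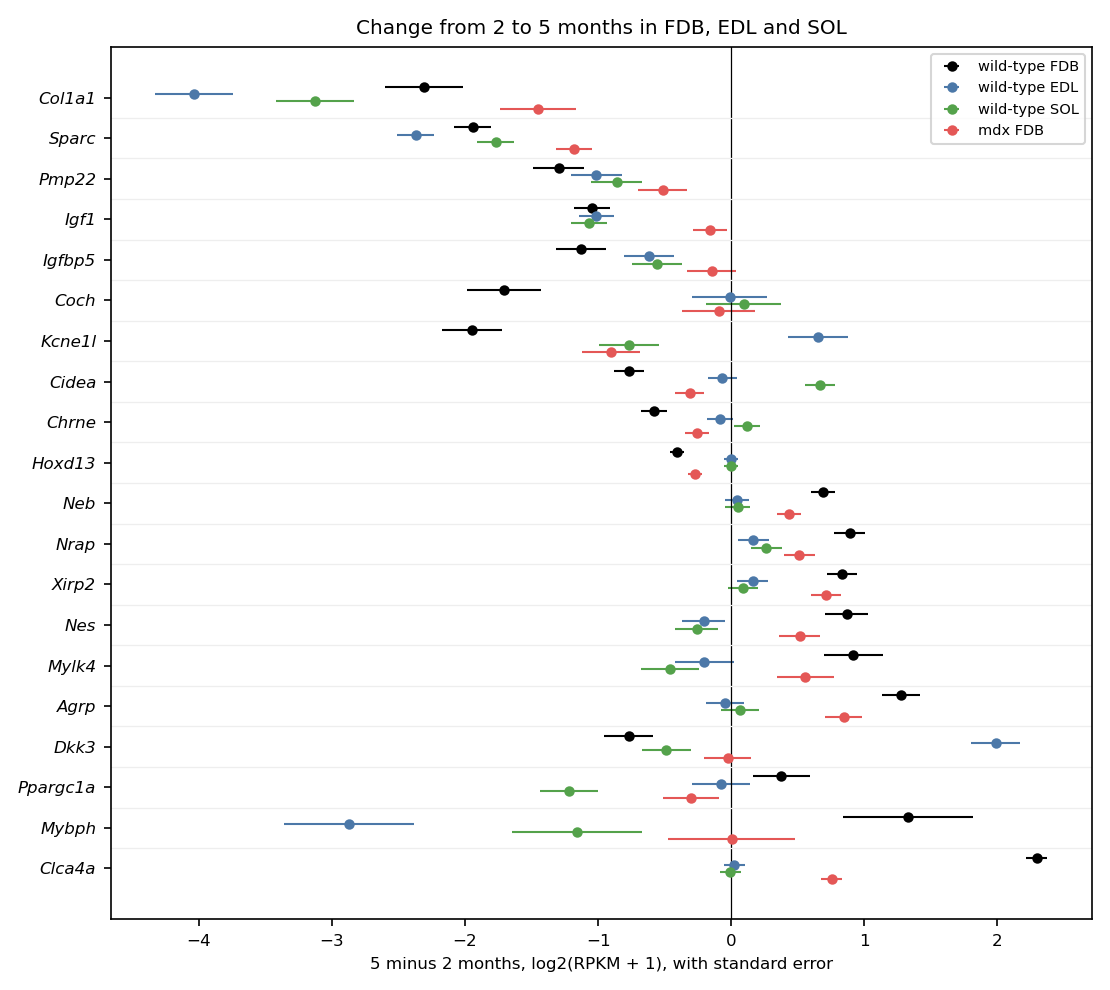
Log2 change from 2 to 5 months, log2(RPKM + 1), with its standard error (horizontal axis) for 20 genes in wild-type FDB (black), wild-type EDL (blue), wild-type SOL (green) and mdx FDB (red). Neb, Nrap, Xirp2 and Nes lie to the right of 0 in FDB of both genotypes, and Coch lies at -1.71 in wild-type FDB and near 0 in the other 3.

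In the FDB of mdx mice 738 of 12541 genes passed with age (5.88%, with 2.42% higher and 3.46% lower at 5 months). The difference of age changes between wild-type and mdx FDB passed for 168 genes (1.34%), 44 with a higher value in wild type (0.351%) and 124 with a lower one (0.989%). Leaving out 1 wild-type library moved that count to between 58 (without ns14) and 292 (without ns11). Coch, which fell in wild type, was at 55.004 ± 29.8 RPKM in mdx FDB at 2 months (n = 3) and 50.5 ± 21.9 RPKM at 5 months (n = 7), a difference of -1.61 (adjusted p = 0.0265). Igf1 went from 15.2 ± 0.528 to 13.5 ± 0.939 RPKM in mdx FDB, a difference of -0.89 (adjusted p = 0.0109), and Igfbp5 and Igfbp7 differed by -0.98 and -0.79. Sparc fell in both genotypes, less in mdx (difference -0.76, adjusted p = 0.0339). Cldn5, Cfb (a complement factor), Insig1 and Msmo1 differed by -1.305, -1.06, -0.65 and -0.74, and Rpph1, the RNA of ribonuclease P, by -1.86. Rpph1 did not pass in wild-type FDB itself (log2 change -0.32, adjusted p = 0.4496), where it was at 1.18 RPKM or less in every library. With a higher value in wild type, Clca4a differed by 1.54, the predicted gene Gm5177 by 1.61, Ggta1, a glycosyltransferase, by 1.22, Nexn by 0.82, Trdn by 0.65 and Mn1, a transcriptional regulator, by 1.01.

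Most of these calls were lost when only the 3 mdx libraries at 5 months with the earlier IDs entered. Of the 7 mdx FDB libraries at 5 months, 3 have IDs next to those of wild-type FDB and 4 have IDs above those of every wild-type library, and the labels do not say what the numbering stands for. With only the first 3, 35 genes passed, 24 of them among the 168. Of the 16 genes named here whose difference passed with all 7, Clca4a, Gm5177 and Ggta1 passed with the first 3 and the other 13 did not. All 16 kept their sign with the first 3, and all 16 passed with the 4 later ones. The 16 were picked by their pass with all 7, which hold both sets, so this was largely fixed by the choice. Some values were about as large either way, such as -0.84 with the first 3 and -0.92 with the later 4 for Igf1 (adjusted p = 0.0706 and 0.00112), and -1.09 and -1.03 for Cfb. Others were not: Gm5177 differed by 0.74 with the first 3 and 2.27 with the later 4, Cldn5 by -0.50 and -1.905, Coch by -1.02 and -2.06, and Trdn by 0.39 and 0.86. Several of these calls were also lost when 1 wild-type library was left out. That held for Sparc and Coch without any one of ns10, ns12, ns13 and ns14 (adjusted p 0.0221 to 0.163 and 0.00905 to 0.254 over the alternatives), and for Insig1 without ns09, ns12, ns13 or ns14 (0.0128 to 0.242). It held for Cldn5, Mn1 and Trdn without any library but ns11 (0.0453 to 0.466, 0.0203 to 0.1103 and 0.000516 to 0.382), for Igfbp5 without any but ns09 and ns11 (0.0444 to 0.263), for Cfb without ns09, ns10, ns12 or ns14 (0.0282 to 0.107), for Rpph1 without ns09, ns13 or ns14 (0.0189 to 0.163), for Igfbp7 without ns09 or ns14 (0.00859 to 0.237), for Msmo1 without ns09 (0.01098 to 0.148) and for Nexn without ns12 (0.0002498 to 0.1701). A pseudocount of 0.1 ended the calls of Igfbp5, Mn1, Trdn, Rpph1 and Cfb, the lack of a filter those of Cldn5, Igfbp5, Mn1 and Trdn, quantile normalization those of Sparc and Igfbp5, and median-of-ratios scaling that of Igfbp5. The 4 libraries with later IDs are all mdx, so for them numbering and genotype cannot be told apart.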

How the data were processed

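RNA of whole muscles was sequenced, and the values used are RPKM per gene, which the authors deposited as 1 table for 55 libraries. Per the submitters' processing notes, CASAVA 1.8.2, TopHat2 2.1.0 and Partek 6.6 were used with the mouse build mm10. The gene annotation behind the table was not given in the sources used here. Value columns carry a group but no replicate number, and every column belonged to a group of the labels (0 columns were left out).

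Tests covered the 12541 of 24453 genes whose mean over all libraries reached 0.5 RPKM. A model of 12 group means was fitted to log2(RPKM + 1) with limma 3.58.1 (lmFit, then eBayes with a trend) in R 4.3.3, so that all adjusted p-values are two-sided, from limma's moderated test, with Benjamini-Hochberg adjustment over all genes tested and a threshold of 0.05. Contrasts were 5 minus 2 months in wild-type FDB, and the difference of that change from those in wild-type EDL, wild-type SOL and mdx FDB. The fit was tested on simulated data. RPKM holds no counts. Relative depth was read from the steps between low values, of which 77.1% to 83.1% in wild-type FDB lay within 0.1 of a whole read for short genes, too few to recover counts, so no count test was run.

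The text names the 15 largest changes in each direction among genes past the threshold with a mean of at least 1 RPKM at either age (some predicted genes and pseudogenes are left unnamed, and a few other genes are not reported here), the largest changes and the defining members of 46 gene lists, and the largest values of each sign in each difference. The members and lists were chosen with earlier results of these data known. Nrap, Xirp2, Nexn, Nes and Hspb7 were chosen after their values were seen. Gene positions are from GENCODE M21 on mm10 and promoters from RefSeq on GRCm38.p6. Alternatives were a pseudocount of 0.1, no filter or a minimum of 2 RPKM, median-of-ratios scaling, quantile normalization, fits of fewer groups, and leaving out each wild-type FDB library.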

Additional observations from a re-analysis of the deposited data

Results flagged for a closer look

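Of 256 groups of 4 wild-type FDB libraries, 1 per gene and age, 12 had a library that stood apart from the other 3, where chance alone flags about 1 in 20. The number flagged is thus near what chance gives. The library ns15 at 5 months was the one that stood apart for Prx at 7.28 RPKM, Scd2 at 11.2 RPKM, H19 at 77.4 RPKM and Rpl34, a ribosomal protein gene with many processed copies, at 10.9 RPKM. At the same age ns14 stood apart for Col5a1 at 10.6 RPKM, Plvap at 4.18 RPKM, Pecam1 at 12.5 RPKM and Mcpt4 at 1.97 RPKM. At 2 months ns09 stood apart for Cma1 at 12.3 RPKM, ns10 for Gm5177 at 0.186 RPKM, ns11 for the Y-linked gene Eif2s3y at 26.9 RPKM and ns12 for Rian at 10.6 RPKM. Whether anything but chance sets these libraries apart was not tested.

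A further 60 values were flagged because the age change of wild-type FDB differed from that of another group by the test of the difference, all on the log2(RPKM + 1) scale and all using the same wild-type FDB libraries. Against wild-type EDL the difference was higher in FDB for Mybph at 4.20, Clca4a at 2.27, Gm5177 at 2.27, Angptl7 at 2.23, 4933409K07Rik at 1.84, Col1a1 at 1.73, Col1a2 at 1.38, Uchl1 at 1.37, Agrp at 1.33, Mylk4 at 1.12, Nes at 1.08, Nexn at 0.75, Nrap at 0.72, Xirp2 at 0.67 and Neb at 0.64. It was lower in FDB than in EDL for Dkk3 at -2.76, Kcne1l at -2.61, Actr3b at -1.90, Pfkfb3 at -1.70, Coch at -1.70, Rpl34 at -1.42, Gpd1 at -1.13, Chrne at -0.495 and Hoxd13 at -0.41.

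Against wild-type SOL the difference was higher in FDB for Mybph at 2.49, Clca4a at 2.30, Ppargc1a at 1.60, Mylk4 at 1.38, Mustn1 at 1.38, Agrp at 1.21, Sbk3 at 1.197, Nes at 1.13, Uchl1 at 0.96, Xirp2 at 0.74, Neb at 0.64 and Nrap at 0.63. It was lower for Coch at -1.80, Cidea at -1.43, Dkk2 at -1.33, Actr3b at -1.30, Kcne1l at -1.18, Chrnd at -0.80, Chrne at -0.70 and Hoxd13 at -0.41. Against mdx FDB it was higher in wild type for Gm5177 at 1.61, Clca4a at 1.54, Ggta1 at 1.22, Mn1 at 1.01, Nexn at 0.82 and Trdn at 0.65. It was lower in wild type for Rpph1 at -1.86, Coch at -1.61, Cldn5 at -1.30, Cfb at -1.06, Igfbp5 at -0.98, Igf1 at -0.89, Igfbp7 at -0.79, Sparc at -0.76, Msmo1 at -0.74 and Insig1 at -0.65. Of the mdx differences, those of Clca4a, Gm5177 and Ggta1 passed with the first 3 mdx libraries at 5 months alone, that of Gm5177 at 0.74.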

How the results depend on the processing

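The count of genes changed with age in wild-type FDB was 3239 to 3965 when 1 library was left out, 594 to 759 higher and 2629 to 3206 lower. After median-of-ratios scaling 2632 genes were higher and 1739 lower, sharing 2533 with the calls as deposited, and after quantile normalization 2483 and 1654, sharing 2417. Fits of the 8 wild-type FDB libraries alone and of the 6 wild-type groups called 1251 and 1292 genes higher. With the 6 wild-type groups, 1695 genes differed between FDB and EDL and 1471 between FDB and SOL. Leaving out 1 library gave 249 to 367 differences from EDL, 168 to 310 from SOL and 58 to 292 from mdx FDB. More than a 1.5-fold move came without ns14 for EDL (249), without ns10 (211), ns12 (205) or ns14 (168) for SOL, and for mdx without ns09 (92), ns10 (70), ns11 (292), ns12 (68), ns13 (64) or ns14 (58). With the first mdx libraries only, 35 genes differed from mdx FDB.

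The log2 change turned positive after median-of-ratios scaling and quantile normalization for Hoxa13, to 0.10 and 0.061, and Dmd, to 0.13 and 0.076. That of Myh7 ran from -0.0083 to 0.078 and that of Eif2s3y from -0.059 to 0.164 over the fits that left out 1 library. None of these passed under any of those settings. The cause was not tested. No paired analysis was possible because the value columns carry no replicate number that ties them to the numbered titles. The pseudocount of 1 damps the change of genes near or below 1 RPKM. The annotation behind the counts is unknown, so genes with close copies are uncertain.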

Other observations

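Further gene groups had few members that passed in wild-type FDB. Of 14 core clock genes none passed (median log2 change -0.11), so that the genes that keep daily time gave no call between the ages, and of 14 clock output genes 2 fell, Pfkfb3 and Tns2. Of 30 immediate early and heat shock genes 3 fell and 1 rose (median -0.40). Of 19 genes of calcium handling 4 fell and 1, Trdn, rose. Of 40 cytosolic ribosomal protein genes 4 fell and none rose (median -0.14), with 1 and 14 falls after median-of-ratios scaling and quantile normalization. Of 17 polyamine and translation genes 2 rose and 4 fell, of 20 of the unfolded protein response 1 rose and 1 fell, and of 18 transcriptional regulators of metabolism 2 fell.

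Markers of some further tissues were summed per library. Of 9 epidermis genes tested 1 fell, Krtdap, and the list summed to 13.1 to 16.2 RPKM per library at 2 months and 7.301 to 9.24 RPKM at 5 months. Red cell genes summed to 106 to 220.2 and 142 to 224 RPKM. None of 3 bone genes passed, with sums of 8.98 to 11.8 and 6.33 to 12.1 RPKM. In all 8 libraries Xist was at 0.0166 RPKM or less and Eif2s3y, on the Y chromosome, at 26.9 RPKM or more, which was looked at as a check of the samples after the values were seen.

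Some pseudogenes, predicted or RIKEN-named genes and members of gene families changed in wild-type FDB. Reads shared with copies may make their levels uncertain, which was not tested. For these genes too, library numbering and age cannot be told apart in wild-type FDB. The difference of Gm5177 from mdx FDB was 0.74 with the first 3 mdx libraries at 5 months and 2.27 with the later 4. Gm5177 went from 0.142 ± 0.02904 to 4.51 ± 0.322 RPKM, with a log2 change of 2.27 in FDB, 1.94 in wild-type SOL (adjusted p = 2.11e-08) and -0.000 in wild-type EDL (adjusted p = 0.999). For Tmem181c-ps, a pseudogene, these changes were 1.05, 1.13 and 0.001, and for 4933409K07Rik they were 1.78, 1.83 and -0.061. Rhox8 rose in FDB (1.56) and SOL (1.42), while Rpl37rt and Gm20753 rose in FDB (1.34 and 1.22) and did not pass in SOL (adjusted p = 0.134 and 0.0634). Rpl34 fell in FDB from 42.3 ± 5.95 to 12.7 ± 1.17 RPKM (-1.66) and in SOL (-1.52), and Gm3383, named after its values were seen, from 1.62 ± 0.224 to 0.0204 ± 0.0117 RPKM in FDB.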
